A study of Homo sapiens with 30 samples.

Results

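The data compare nascent transcription in 3 global run-on libraries labelled hNABP2 (hSSB1) KO with 3 WT libraries, all run with NTP, out of 30 libraries in the study. The libraries were chosen by genotype and nucleotide label, and each KO-labelled library was set beside the WT library of the same repeat number. HT1080 is a human fibrosarcoma line, and all groups were grown untreated to passage 10 to 15. Run-on libraries of the same 2 genotypes made with no NTP, 3 each, serve as the background measured the same way. With NTP the KO-labelled libraries held 19581, 6581 and 115923 counts in repeats 1 to 3, and the WT libraries 11981, 5883 and 164357. With no NTP the KO-labelled libraries held 10544, 8397 and 79429 counts, and the WT libraries 9220, 5272 and 19247. In KO-labelled repeat 2 the total with no NTP was thus the larger. How much of the counts with NTP is background was not tested. The sources used here do not give the kind of knockout, whether the line is a single clone, or the strand setting of the counting. The labels speak of 2 independent experiments where 3 repeats are given, so n, SD and p count libraries and may measure technical spread.

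In a global run-on, engaged RNA polymerases in isolated nuclei are allowed to extend their transcripts with a labelled uridine analogue, and an antibody to that analogue pulls the extended RNA out. The method reads all 3 nuclear polymerases: Pol I transcribes the ribosomal RNA precursor, Pol II the messenger, long non-coding and most small nuclear RNA genes, and Pol III the transfer RNA genes, RN7SL, RN7SK, RMRP and RPPH1. hNABP2 is a single-stranded DNA binding protein of the SOSS complex, which it forms with INTS3 and INIP, and is known for its part in the DNA break response.

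The targeted gene was measured first. NABP2 had 4, 3 and 15 counts in the KO-labelled libraries, against 4, 0 and 8 counts in WT, or 263 ± 171 CPM (counts scaled to a common library total) in KO-labelled libraries and 128 ± 180 CPM in WT (SD, n = 3 each). The 2 groups overlapped. Its paralogue NABP1 had 2, 0 and 9 counts in KO-labelled libraries and 1, 0 and 19 in WT. The mean CPM of NABP2 was not lower in KO-labelled libraries, though in repeat 1 it stood at 204 CPM in the KO-labelled library against 334 CPM in WT. Run-on counts over a gene whose edit is unknown do not check the knockout, so the libraries are called by their labels throughout.

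The 2 shallow repeats stood apart from the deep one in both genotypes. In repeats 1 and 2 the 10 genes with the most counts held 10.6% and 9.69% of the counts of the KO-labelled libraries and 15.3% and 19.5% of those of WT, while in repeat 3 they held 1.59% and 1.14%. Over 865 pairs of a gene and its antisense partner named with the suffix AS1, the antisense gene held 66.7%, 66.9% and 37.0% of the counts of the pair in KO-labelled repeats 1 to 3, against 70.2%, 67.0% and 35.5% in WT. Sense and antisense counts are therefore given below with no statement on strand. Of the 21 mesenchymal markers, 13 had 20 or more counts over the 6 libraries, and the list held 1.03%, 1.57% and 0.275% of counts in KO-labelled libraries and 0.801%, 2.60% and 0.215% in WT. In repeat 2 the collagen gene COL5A1 alone had 96 of the 103 counts of that list in the KO-labelled library and 143 of 153 in WT. The 16 leukocyte markers held 0.0304% to 0.0715% in KO-labelled libraries and 0.0170% to 0.0501% in WT, and the 15 neural markers 0.0304% to 0.0715% and 0% to 0.0651%. The 15 epithelial markers held 0.0440% to 0.204% in KO-labelled libraries and 0.0280% to 0.309% in WT, led by KRT8 with 32, 3 and 9 counts in KO-labelled libraries and 29, 3 and 11 in WT. Of these lists 13 of 16 leukocyte, 14 of 15 epithelial and 15 of 15 neural markers had a count in some library. The macrophage marker CD68 had 1, 0 and 5 counts in KO-labelled libraries against 2, 0 and 19 in WT, and the neuronal tubulin gene TUBB3 had 3, 0 and 17 against 0, 0 and 16. The glial marker GFAP had 3, 2 and 10 counts in KO-labelled libraries against 2, 0 and 19 in WT. The 4 markers with 0 counts in all 6 libraries were KRT14, LYZ, CD3G and CD79B.

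The first comparison asks which genes are transcribed more or less in the KO-labelled cells. No gene passed. Among the 129 genes with enough counts to test, 0 (0%) had an adjusted p under 0.05 by edgeR's quasi-likelihood test with Benjamini-Hochberg adjustment. Adjusted p values began at 0.990, and the count with an unadjusted p under 0.05 was 0, while DESeq2 and limma voom each called 0 genes with 1 at an unadjusted p under 0.05. Of the 129, 68 lay higher and 61 lower in KO-labelled libraries, at a median log2 fold change of 0.03. With library totals in place of TMM factors the split was 86 higher and 43 lower and the median 0.25, so the lean toward higher genes moves with the scaling. Among 13447 genes with 10 or more counts over the 9 libraries with NTP, which include hNABP1 KO, 0 (0%) passed by edgeR and 41 had an unadjusted p under 0.05. With the repeat number as a block, 4 of the 129 and 112 of the 13447 had an edgeR unadjusted p under 0.05. None passed, and in the 129 edgeR adjusted p values began at 0.842. In the 6 KO-labelled and WT libraries alone, 65 genes passed the filter and 12006 had 10 or more counts, with 0 called by edgeR in each set.

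The genes with the smallest p values are named here although none passed (edgeR adjusted p = 0.990 for each). DLG4, which encodes a synaptic scaffold protein, had 9, 6 and 14 counts in KO-labelled libraries against 15, 12 and 32 in WT. It lay below WT in every repeat, at a log2 fold change of -1.16 (SE 0.525). RMRP, the RNA of the RNase MRP ribonucleoprotein, had 85, 21 and 83 counts in KO-labelled libraries against 81, 84 and 66 in WT (log2 fold change -0.78, SE 0.663). Per library total it was lower in KO-labelled repeats 1 and 2, at 4341 and 3191 CPM against 6761 and 14278 CPM in WT, and higher in repeat 3, at 716.0 against 401.6 CPM. FADS2, a fatty acid desaturase gene, lay at -0.94 (SE 0.634) and SMPD4, a sphingomyelinase gene, at -0.88 (SE 0.766). On the other side NEIL1, a base excision repair glycosylase, had 4, 18 and 25 counts in KO-labelled libraries and 3, 8 and 10 in WT, at 0.98 (SE 0.810). ADCY3, an adenylate cyclase gene, lay at 0.76 (SE 0.603), SAMD11 at 0.64 (SE 0.532), and the uncharacterised LOC100130093 and LOC100289511 at 0.84 (SE 0.605) and 0.67 (SE 0.630).

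Ribosomal RNA held less of the counts in the KO-labelled libraries of the 2 shallow repeats, and most of that gap lay in RNA28S5, the 28S ribosomal RNA. RNA28S5 took 2.53%, 2.66% and 0.308% of the counts in KO-labelled repeats 1 to 3, against 6.35%, 9.42% and 0.183% in WT. It was lower in KO-labelled repeats 1 and 2 and higher in repeat 3, and the groups overlapped. RNA45S5, the whole precursor, took 1.86%, 0.425% and 0.592% in KO-labelled libraries and 1.39%, 0.901% and 0.491% in WT, with no common direction over the repeats. For each RNA45S5 count there were 1.36, 6.25 and 0.520 RNA28S5 counts in KO-labelled libraries, against 4.58, 10.5 and 0.372 in WT. The precursor gene contains the 28S gene and both exist in near-identical copies, so the counts of each are uncertain. By edgeR RNA28S5 lay at -1.16 (SE 1.14, adjusted p = 0.990) and RNA45S5 at 0.09 (SE 1.64, adjusted p = 0.990). Only in 1 alternative chosen after seeing the data, with genes of 10 or more counts, the repeat number as a block and repeat 3 left out, did RNA28S5 pass, at -1.59 (SE 0.340, edgeR adjusted p = 0.00418), as the single gene called of 1271.

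As a class, ribosomal RNA genes held 4.42% (exact 95% interval 4.14 to 4.72), 3.10% (2.69 to 3.55) and 0.911% (0.857 to 0.967) of the counts in KO-labelled repeats 1 to 3. In WT they held 7.75% (7.28 to 8.25), 10.3% (9.55 to 11.1) and 0.684% (0.645 to 0.726). These intervals cover counting error only. The means were 2.81% ± 1.77 in KO-labelled libraries and 6.3% ± 5.0 in WT (SD, n = 3 each), a difference smaller than the spread of WT (exact permutation test, two-sided, p = 0.4; 0.9 adjusted over the 9 gene classes; 3 against 3 cannot go below 0.1). That difference of -3.44 points was -1.41 points without WT repeat 2, -1.55 without repeat 2 of both genotypes, -6.22 without WT repeat 3 and -5.27 without repeat 3 of both. The libraries with no NTP showed the lower share too, at 4.03%, 3.49% and 1.12% in KO-labelled libraries against 13.1%, 12.4% and 2.02% in WT, so the background of the run-on held the gap too (exact permutation test, two-sided, p = 0.3). RNA28S5 itself held 2.56%, 3.12% and 0.276% of the counts with no NTP in KO-labelled libraries, against 11.2%, 11.3% and 0.618% in WT.

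**Figure D1:**
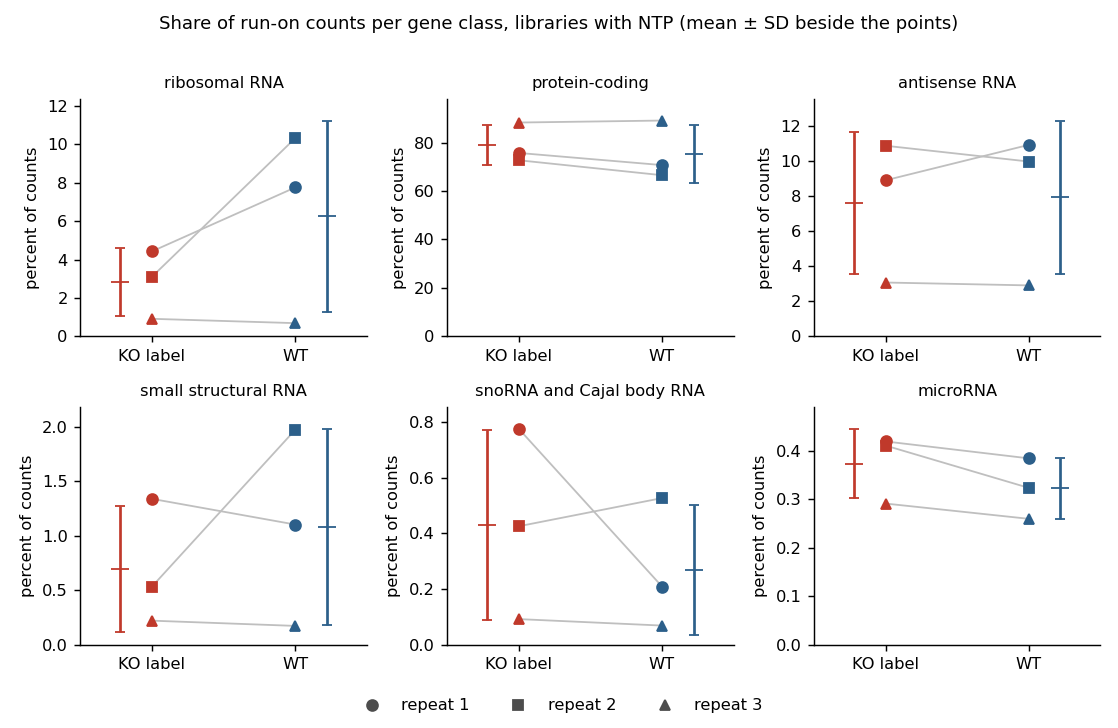
Percent of run-on counts (y axis) held by 6 gene classes in libraries labelled hNABP2 KO (left of each panel) and WT (right), all with NTP; marker shapes are the repeats, grey lines join the libraries of a repeat, and bars give the mean ± SD of 3 libraries. The ribosomal RNA share was below WT in repeats 1 and 2 and near it in repeat 3, at 0.911% in the KO-labelled library and 0.684% in WT.

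Protein-coding genes held most of the counts: 75.7%, 72.7% and 88.3% in KO-labelled libraries and 70.7%, 66.5% and 89.1% in WT. The share was higher in KO-labelled repeats 1 and 2, the repeats in which ribosomal RNA was lower, and lower in repeat 3. The leading coding genes were COL5A1, a fibrillar collagen gene, with 45, 96 and 170 counts in KO-labelled libraries against 37, 143 and 131 in WT, PLEC, which encodes the cytolinker plectin, with 44, 9 and 76 against 29, 41 and 107, and MFSD11 with 49, 31 and 38 against 39, 16 and 52. COL5A1 lay at a log2 fold change of -0.32 (SE 0.829, edgeR adjusted p = 0.990).

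Antisense RNA genes held 8.91%, 10.9% and 3.07% of the counts in KO-labelled libraries and 10.9%, 9.98% and 2.91% in WT. The class was led by VIM-AS1, which lies opposite the vimentin gene and had 596, 103 and 143 counts in KO-labelled libraries against 522, 131 and 101 in WT (log2 fold change -0.30, SE 1.15, edgeR adjusted p = 0.990). VIM itself had 17, 3 and 15 counts in KO-labelled libraries and 9, 0 and 36 in WT. With no NTP VIM-AS1 had 1043, 162 and 145 counts in KO-labelled libraries and 627, 115 and 104 in WT, so the background held many of its counts. Other long non-coding RNA genes held 4.3%, 6.7% and 3.2% in KO-labelled libraries and 4.7%, 5.2% and 3.0% in WT, and were led by C10orf55 with 110, 99 and 81 counts against 104, 65 and 59. With no NTP C10orf55 had 123, 100 and 51 counts in KO-labelled libraries and 91, 67 and 26 in WT.

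Small RNA genes moved with single libraries. The small structural RNAs held 1.34%, 0.532% and 0.219% of counts in KO-labelled libraries and 1.10%, 1.97% and 0.171% in WT. RN7SK, a small nuclear RNA that sequesters P-TEFb, had 46, 10 and 122 counts in KO-labelled libraries and 26, 26 and 142 in WT. RN7SL1, the RNA of the signal recognition particle, had 54, 1 and 3 against 13, 0 and 7, and its near-identical copy RN7SL2 54, 0 and 4 against 7, 1 and 7, with reads that cannot be assigned safely between them. Small nucleolar and Cajal body RNAs held 0.776%, 0.425% and 0.0914% in KO-labelled libraries and 0.209%, 0.527% and 0.0681% in WT. In KO-labelled repeat 1 SNORA73A had 52 counts and SCARNA12 had 41, against 3 and 6 in WT repeat 1. In the other repeats SNORA73A had 1 and 0 counts in KO-labelled libraries against 3 and 1 in WT. MicroRNA genes were higher in the KO-labelled library of all 3 repeats, at 0.419%, 0.410% and 0.291% against 0.384%, 0.323% and 0.259% in WT, a difference of 0.0512 points (exact permutation test, two-sided, p = 0.4; 0.9 adjusted over 9 classes). Pseudogenes were also higher in all 3 repeats, at 0.955%, 1.32% and 1.64% against 0.793%, 1.07% and 1.57%. No gene class reached an adjusted p under 0.9, and in each of the 9 the groups overlapped.

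**Figure D2:**
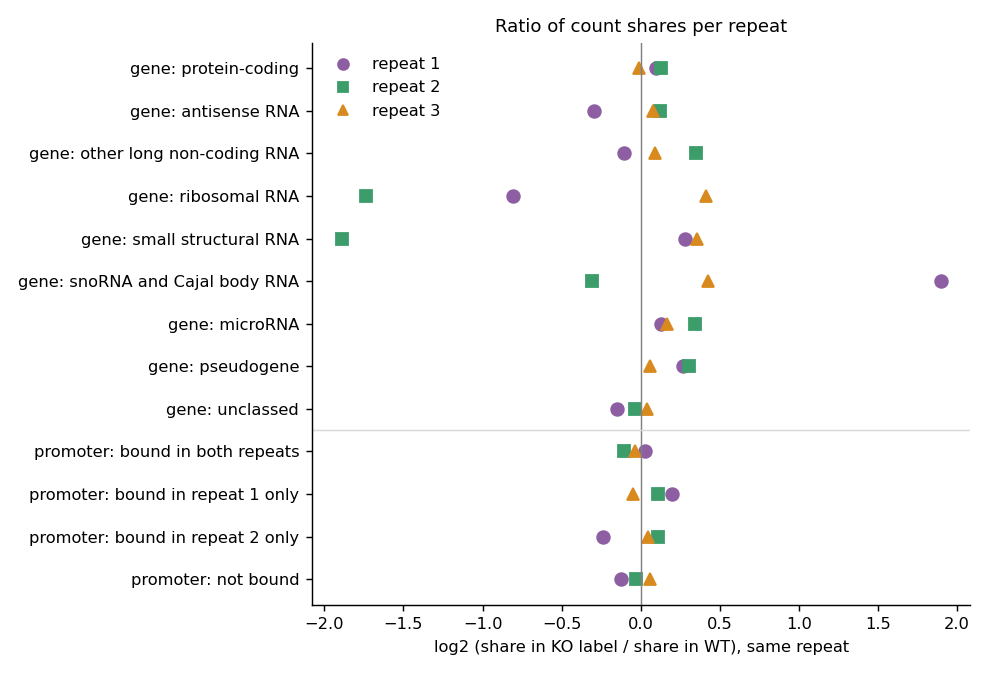
Log2 ratio of the share of counts in the library labelled hNABP2 KO to that in WT of the same repeat (x axis) for 9 gene classes and 4 classes of promoter binding (rows); marker shapes and colours are the repeats, and 0 means equal shares. Ribosomal RNA, small structural RNA and small nucleolar RNA spread widely between repeats, and the promoter classes lie near 0.

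Genes were next split by whether their promoter carried an anti-hNABP2 ChIP peak in WT cells, the deposited annotation placing it within 1 kb of a start. Genes bound in both ChIP repeats (2056 genes) held 12.7%, 13.6% and 15.8% of the run-on counts in KO-labelled libraries and 12.5%, 14.7% and 16.2% in WT. The means were 14.1% ± 1.60 in KO-labelled libraries and 14.5% ± 1.88 in WT (SD, n = 3 each), a difference of -0.403 points within the spread of either group (exact permutation test, two-sided, p = 0.8; adjusted over 4 classes 1.0). Genes bound in ChIP repeat 1 only (5471) held 35.2%, 27.8% and 37.3% in KO-labelled libraries and 30.7%, 25.7% and 38.7% in WT. Genes bound in ChIP repeat 2 only (353) held 1.28%, 2.48% and 2.10% against 1.51%, 2.30% and 2.03%. The 18595 genes with no such peak held 50.8%, 56.1% and 44.8% in KO-labelled libraries and 55.3%, 57.3% and 43.1% in WT. With no NTP, genes bound in both repeats held 11.1%, 13.4% and 16.6% in KO-labelled libraries and 11.8%, 14.7% and 14.4% in WT.

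Within protein-coding genes alone, where ribosomal RNA cannot enter the total, the 2020 genes bound in both ChIP repeats held 16.6%, 18.1% and 17.7% of the coding counts in KO-labelled libraries and 17.5%, 21.5% and 18.0% in WT. That share was lower in the KO-labelled library of every repeat, with differences of -0.942, -3.35 and -0.297 points (exact permutation test, two-sided, p = 0.5; exact sign-flip test, two-sided, p = 0.25, the smallest that 3 pairs allow). With no NTP the differences were -1.65, -3.21 and 0.375 points, so the background held the gap of repeats 1 and 2 too. Of the 2056 genes of all classes bound in both ChIP repeats, 1948 had 10 or more counts over the 9 libraries with NTP. Of these 1008 lay higher and 940 lower in KO-labelled libraries and 0 passed. That is 51.7% higher, at a median log2 fold change of 0.03, beside 53.8% higher and a median of 0.07 over all 13447 genes. The leading genes of this class were COL5A1, PLEC and SPNS2, a sphingolipid transporter gene with 12, 21 and 32 counts in KO-labelled libraries and 18, 14 and 30 in WT. Among genes bound in ChIP repeat 2 only, LRRC75A had 24, 6 and 18 counts in KO-labelled libraries against 15, 6 and 15 in WT, and ZNF276 8, 8 and 37 against 5, 12 and 49.

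Agreement between repeats was looked at gene by gene over the 457 genes with at least 20 counts in all and at least 3 counts in a library of each repeat. Of these, 91 (19.9%) were higher in the KO-labelled library of all 3 repeats and 43 (9.41%) were lower in all 3, with ratios taken per library total after adding 0.5 to each count. Under library totals the 129 genes tested by edgeR split 86 higher to 43 lower, and under TMM factors 68 to 61. Whether the lean of the 457 genes moves with the scaling was not tested. Among genes bound in both ChIP repeats 14 of 60 (23.3%) were higher and 5 (8.33%) lower in all 3, close to those shares, and among unbound genes 49 of 249 (19.7%) were higher and 27 (10.8%) lower. The median log2 ratio of the 457 genes was -0.05, 0.32 and 0.19 in repeats 1 to 3.

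SRR, the serine racemase gene, had 16, 4 and 9 counts in KO-labelled libraries against 4, 1 and 4 in WT, with log2 ratios of 1.17, 1.42 and 1.58. SCRN1, a secernin gene, had 7, 3 and 7 counts in KO-labelled libraries against 1, 0 and 3 in WT. BZRAP1-AS1 had 24, 3 and 21 against 8, 0 and 12, and KHNYN, which encodes a cofactor of the antiviral protein ZAP, 9, 3 and 29 against 3, 1 and 20. ZBTB48, a telomere-binding zinc finger gene, SVIL (supervillin), GPS2 and GNL1 complete the 8 largest on this side; each had 0 counts in WT repeat 2, so their ratios there rest on the added 0.5. On the other side ZNHIT2 had 0, 2 and 9 counts in KO-labelled libraries and 4, 5 and 31 in WT, and RCC2, a mitotic regulator gene, 2, 1 and 4 against 3, 3 and 13, at ratios of -1.19, -1.38 and -1.08. TYMS, the thymidylate synthase gene, had 2, 0 and 5 counts in KO-labelled libraries and 7, 3 and 10 in WT. ADCY7, LOXL1, a lysyl oxidase that crosslinks elastin, DLG4, SMPD4 and LOC389199 were lower in every repeat as well. All 16 were picked by this agreement, so their ratios are a description, and none passed by edgeR in any of the fits run.

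**Figure D3:**
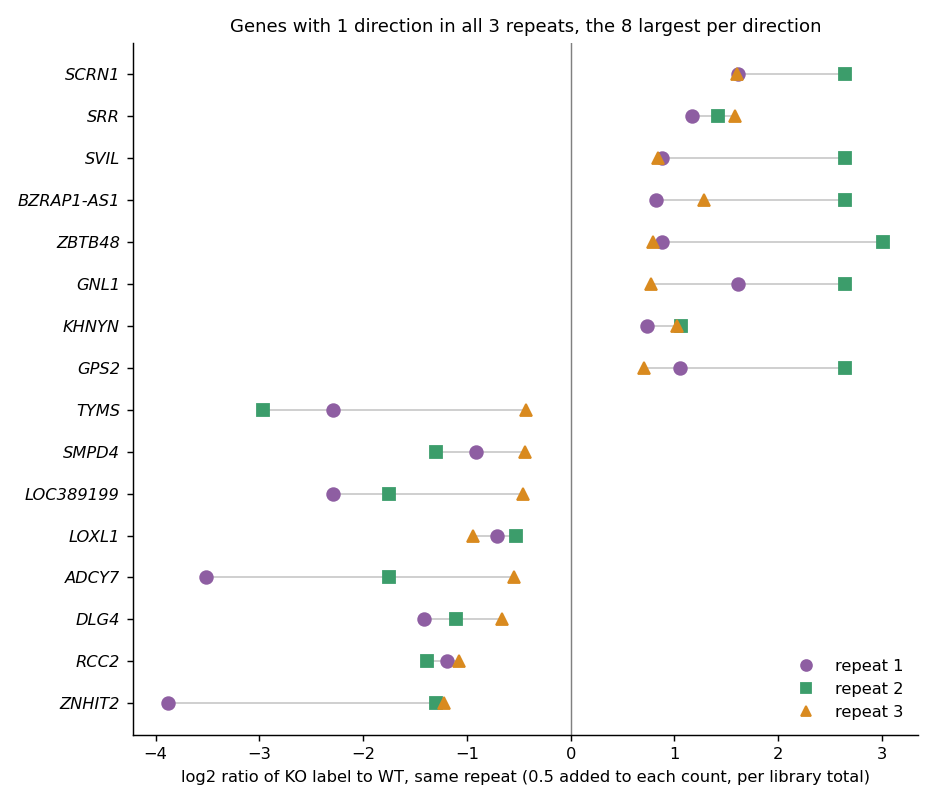
Log2 ratio of the library labelled hNABP2 KO to WT of the same repeat (x axis; 0.5 added to each count, per library total) for the 8 genes per direction with the largest smallest ratio; markers are the repeats and grey lines span them. SRR lies at 1.17, 1.42 and 1.58 and RCC2 at -1.19, -1.38 and -1.08, while other genes differ widely between repeats.

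Lists of genes were described among the genes with 10 or more counts over the 9 libraries with NTP, which include hNABP1 KO. There 53.8% of all genes lay higher and 0 members of any list passed in either direction by edgeR. For the SOSS and Integrator subunits, the partners of hNABP2 and of the snRNA processing machinery, 8 of 17 lay higher and 9 lower (median log2 fold change -0.09); INTS6 had 2, 0 and 15 counts in KO-labelled libraries and 2, 1 and 20 in WT. Of 31 pausing and elongation factors of Pol II 18 lay higher (median 0.19), among them SUPT5H, a subunit of the pausing factor DSIF, with 4, 2 and 11 against 2, 0 and 10 counts. The R-loop factors and helicases had 9 of 19 higher (median -0.03). Of 28 DNA break and replication stress genes 18 lay higher (median 0.15); CHEK1, a checkpoint kinase gene, had 3, 0 and 22 counts in KO-labelled libraries and 0, 1 and 16 in WT. The share of counts of that list was higher in the KO-labelled library of each repeat, at 0.322%, 0.198% and 0.190% against 0.242%, 0.170% and 0.189%, and the last pair is nearly equal.

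Targets of p53 leaned the other way. Of 24 such genes 17 lay lower and 7 higher (median -0.18), and the list held 0.133%, 0.0456% and 0.177% of counts in KO-labelled libraries against 0.192%, 0.119% and 0.186% in WT, lower in every repeat but with the groups overlapping. These shares rest on few counts, 26, 3 and 205 in KO-labelled libraries against 23, 7 and 305 in WT, and the pair of repeat 3 is nearly equal. MDM2, which encodes the ligase that degrades p53, had 1, 0 and 8 counts in KO-labelled libraries and 2, 0 and 17 in WT, and SESN2 had 0, 0 and 14 against 0, 0 and 24. Immediate early genes were split 13 to 12 (median 0.02). Of 14 interferon-stimulated genes 11 lay higher (median 0.60), mostly on few counts, with IRF7 at 2, 16 and 19 in KO-labelled libraries and 0, 9 and 16 in WT. Extracellular matrix genes had 23 of 32 higher (median 0.17), among them FN1, the fibronectin gene, with 35, 0 and 19 counts against 16, 2 and 8. That list held 1.28%, 1.72% and 0.471% of counts in KO-labelled libraries against 1.00%, 2.69% and 0.397% in WT, higher in repeats 1 and 3 and lower in repeat 2. In repeat 2 COL5A1 alone had 96 of the 113 counts of the list in the KO-labelled library and 143 of 158 in WT. The share there thus rests largely on 1 gene. Of 70 cytosolic ribosomal protein genes 52 lay higher (median 0.42), but the list held 1.35%, 0.198% and 0.472% of counts in KO-labelled libraries against 0.618%, 0.272% and 0.459% in WT, higher in repeats 1 and 3 and lower in repeat 2. RPL7, a large subunit gene, had 28, 0 and 2 counts against 2, 0 and 0. These genes have many near-identical processed copies, which makes their counts uncertain. Abundant structural and nuclear RNAs had 10 of 13 higher (median 0.54), but the list held 5.99%, 3.68% and 1.19% of counts in KO-labelled libraries against 8.99%, 12.3% and 0.911% in WT, lower in repeats 1 and 2 and higher in repeat 3. RNA28S5 alone had 496 of 1173 and 175 of 242 counts of that list in KO-labelled repeats 1 and 2. In WT it had 761 of 1077 and 554 of 726, so these shares largely repeat the ribosomal RNA result above. Replication-dependent histones had 16 of 23 higher (median 0.25). The histone list as a whole nevertheless held less in every KO-labelled repeat, at 0.327%, 0.106% and 0.0966% against 0.376%, 0.153% and 0.101%.

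The authors called run-on peaks in each library with a fold, which is their ratio over background. The KO-labelled libraries had 243, 338 and 95 peaks and the WT libraries 94, 195 and 264, or 225 ± 123 in KO-labelled libraries and 184 ± 85.5 in WT (SD, n = 3 each; exact permutation test, two-sided, p = 0.7). KO-labelled libraries had more in repeats 1 and 2 and fewer in repeat 3. Covered lengths were 78011, 72165 and 25003 bp in KO-labelled libraries against 26160, 43342 and 78226 bp in WT. The place of the peaks was sorted into classes set after seeing the data.

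In the number of peaks at promoters the 2 genotypes differed most in repeat 3. Peaks on a promoter window, the 250 bases before to 50 after a RefSeq start, numbered 27 of 95 in the KO-labelled library and 183 of 264 in WT. In repeats 1 and 2 they numbered 27 and 55 in KO-labelled libraries and 18 and 30 in WT. The background of repeat 3 was unequal. The KO-labelled library held 115923 counts with NTP and 79429 with no NTP, and WT 164357 and 19247. How far this bears on the peaks was not tested. Of the 196 genes under the WT repeat 3 promoter peaks, 147 (75.0%) were bound in a ChIP repeat, where 70.2% of all genes were not bound. Genes under the promoter peaks of KO-labelled repeats 1 to 3 were bound in 87.5%, 78.85% and 46.15% of cases. For WT repeats 1 and 2 it was 94.4% and 78.6%. The 196 genes held 1.08% and 0.547% of the counts in KO-labelled repeats 1 and 2 and 1.07% and 0.646% in WT, repeats that did not choose them. In repeat 3, which did, they held 1.5% in the KO-labelled library and 1.7% in WT. Mitochondrial peaks numbered 1, 0 and 12 in KO-labelled libraries and 1, 0 and 2 in WT, at low folds, with a median of 1.55 for those 12. Peaks in gene bodies numbered 130, 238 and 37 in KO-labelled libraries and 42, 146 and 60 in WT.

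**Figure D4:**
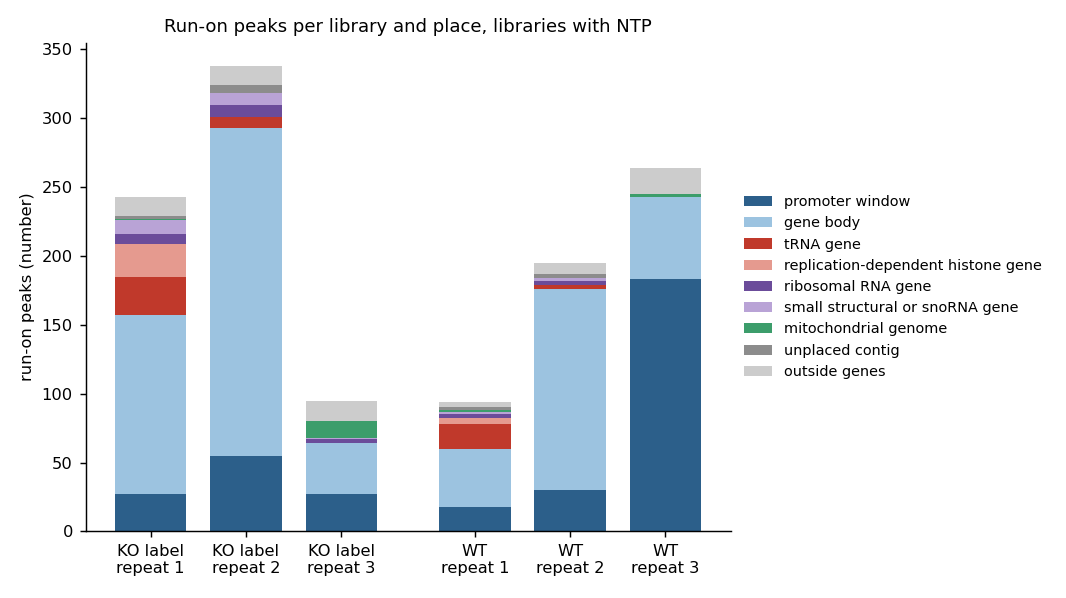
Number of run-on peaks (y axis) in each library with NTP, KO-labelled libraries on the left and WT on the right, stacked by place. WT repeat 3 holds 183 promoter peaks of 264, KO-labelled repeat 3 holds 27 of 95, and transfer RNA gene peaks appear in repeats 1 and 2 of both.

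Of the 46 regions with a peak in 2 or more libraries, 12 lay on transfer RNA genes, 8 on ribosomal RNA genes, 6 in gene bodies, 5 on small structural or small nucleolar RNA genes and 4 on histone genes. Transfer RNA genes carried 28, 8 and 0 peaks in KO-labelled libraries and 18, 3 and 0 in WT (exact permutation test, two-sided, p = 0.7), with median folds of 6.15 and 5.89 in KO-labelled repeats 1 and 2 and 8.34 and 4.96 in WT. The tRNA genes under a peak lay on chromosome 6 in 12 of 28 and 3 of 8 cases in KO-labelled repeats 1 and 2 and in 8 of 18 and 0 of 3 in WT, where 155 of the 465 annotated tRNA genes lie. Replication-dependent histone genes, which sit in clusters and are transcribed in S phase, carried 24 peaks in KO-labelled repeat 1 and 4 in WT repeat 1, and 0 in the other 4 libraries. Small structural and small nucleolar RNA genes carried 10, 8 and 1 peaks in KO-labelled libraries and 2, 2 and 0 in WT, and ribosomal RNA genes 7, 9 and 3 against 3, 3 and 0. These are raw numbers, and the KO-labelled peak lists were the longer ones in repeats 1 and 2. Ribosomal RNA genes carried 2.88%, 2.66% and 3.16% of the peaks in KO-labelled libraries and 3.19%, 1.54% and 0% in WT. By share they were thus lower in KO-labelled repeat 1 and higher in repeats 2 and 3. Transfer RNA genes carried 11.52% and 2.37% of the peaks in KO-labelled repeats 1 and 2 and 19.15% and 1.54% in WT. Histone genes carried 9.88% in KO-labelled repeat 1 and 4.26% in WT.

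The 6 libraries gave 1166 merged peak regions. Of the 46 in 2 or more libraries, 34 lay in at least 1 KO-labelled and 1 WT library, 8 in KO-labelled libraries only and 4 in WT only. In repeat 1, 20 peaks were shared, which is 8.23% of the KO-labelled and 21.3% of the WT peaks. In repeat 2, 9 were shared (2.66% of the KO-labelled and 4.62% of the WT peaks), and in repeat 3, 2 (2.11% and 0.758%). The 2 regions in 4 libraries, each in all 3 KO-labelled libraries and 1 WT library, were chr21:8213043-8213878 in the ribosomal precursor gene RNA45SN2, with folds of 1.56 to 13.8, and chr14:49586591-49586870 over RN7SL1, with folds of 1.20 to 12.4. Among the regions in 3 libraries the highest mean folds outside unplaced contigs lay at chr21:8396520-8396912 in RNA45SN3 (4.76 to 17.3), at the phenylalanine tRNA gene TRF-GAA1-3 at chr11:59557153-59557561 (3.97 to 13.2) and at chr21:8397368-8398197 over the 28S part of RNA45SN3 (2.16 to 18.5). The valine tRNA gene TRV-TAC1-1 at chr11:59550283-59550685, the isoleucine tRNA gene TRI-AAT2-1 at chr6:27688200-27688511 and TRX-CAT1-8 at chr17:82494226-82494781 followed. Positions are hg38, as in the deposited lists, and ribosomal and transfer RNA genes have near-identical copies between which a peak cannot be placed with certainty.

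Under peak regions of 2 or more libraries lay 9 promoter windows, of which 6 are printed as examples chosen after they were seen. The others are a window of PARP2, of which the region over RPPH1 touches the first base, and 2 windows of ANG under 1 region of WT repeats 1 and 2. One ANG window holds the proline tRNA gene TRP-TGG3-2 with no match to the B box core, and the other 2 GC boxes at 69.3% G and C. The printed sequences are the RefSeq windows of GRCh38.p14, 300 bases, 5′ to 3′ on the strand of the gene. Capitals mark the TATA box (TATAAA), the CCAAT box, the GC box (GGGCGG) and the core of the B box inside a tRNA gene (GGTTCGA), searched on both strands; the marked matches do not overlap. H2AC4 (chr6:26033569-26033868, minus strand) and H3C2 (chr6:26032050-26032349, minus strand), core histone genes with peaks in KO-labelled and WT repeat 1, hold a TATA box and 4 and 2 CCAAT boxes:
H2AC4: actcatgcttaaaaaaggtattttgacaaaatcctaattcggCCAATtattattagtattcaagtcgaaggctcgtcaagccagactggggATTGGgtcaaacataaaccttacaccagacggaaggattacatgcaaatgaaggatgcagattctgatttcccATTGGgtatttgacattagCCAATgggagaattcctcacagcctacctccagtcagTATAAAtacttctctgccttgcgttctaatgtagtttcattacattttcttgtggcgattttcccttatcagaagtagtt
H3C2: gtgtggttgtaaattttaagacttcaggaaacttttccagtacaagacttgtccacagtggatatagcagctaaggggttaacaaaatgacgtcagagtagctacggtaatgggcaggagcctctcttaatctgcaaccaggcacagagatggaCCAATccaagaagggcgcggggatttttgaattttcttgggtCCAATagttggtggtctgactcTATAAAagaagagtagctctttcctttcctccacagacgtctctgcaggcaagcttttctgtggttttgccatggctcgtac
SPPL2A (chr15:50765657-50765956, minus strand; an intramembrane protease), with peaks in KO-labelled repeat 2 and WT repeat 3, COL27A1 (chr9:114155287-114155586, plus strand; a fibrillar collagen), with peaks in both repeat 2 libraries, and KRCC1 (chr2:88055734-88056033, minus strand), with peaks in KO-labelled repeats 1 and 2, are rich in G and C:
SPPL2A: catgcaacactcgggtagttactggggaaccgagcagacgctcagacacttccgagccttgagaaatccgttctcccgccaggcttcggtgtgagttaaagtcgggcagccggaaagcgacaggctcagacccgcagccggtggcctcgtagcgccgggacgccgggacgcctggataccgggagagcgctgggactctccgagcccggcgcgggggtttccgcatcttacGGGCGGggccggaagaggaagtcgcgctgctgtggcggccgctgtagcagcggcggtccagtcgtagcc
COL27A1: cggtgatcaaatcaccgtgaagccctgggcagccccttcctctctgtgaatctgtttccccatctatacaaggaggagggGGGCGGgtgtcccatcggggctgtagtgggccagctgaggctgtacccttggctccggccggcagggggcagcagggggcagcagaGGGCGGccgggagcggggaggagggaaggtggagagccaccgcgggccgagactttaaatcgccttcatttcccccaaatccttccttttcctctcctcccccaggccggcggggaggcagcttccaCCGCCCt
KRCC1: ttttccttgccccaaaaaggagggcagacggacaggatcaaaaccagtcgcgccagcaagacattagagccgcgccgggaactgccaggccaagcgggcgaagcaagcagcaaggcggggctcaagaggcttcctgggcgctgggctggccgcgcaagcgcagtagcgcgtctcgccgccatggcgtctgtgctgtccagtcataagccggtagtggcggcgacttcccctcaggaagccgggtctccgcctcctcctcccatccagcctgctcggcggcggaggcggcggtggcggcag
The window of the uncharacterised LOC105375103 (chr6:57800236-57800535, minus strand), with peaks in KO-labelled and WT repeat 1 at folds of 8.80 to 9.80, holds a part of the isoleucine tRNA gene TRI-AAT1-1, with its B box core:
LOC105375103: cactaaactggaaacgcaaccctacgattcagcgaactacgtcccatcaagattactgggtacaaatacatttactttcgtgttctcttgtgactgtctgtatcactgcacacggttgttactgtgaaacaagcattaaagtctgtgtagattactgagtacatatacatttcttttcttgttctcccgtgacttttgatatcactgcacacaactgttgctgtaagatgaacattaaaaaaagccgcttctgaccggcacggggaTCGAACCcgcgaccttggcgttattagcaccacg
Of 34943 such windows 11.6% hold TATAAA, 34.6% the CCAAT box, 44.9% the GC box and 0.864% the B box core. The H2AC4 and H3C2 windows were 39.3% and 45.7% G and C with 6 CpG each, against 67.0%, 65.7% and 67.3% with 35, 16 and 29 CpG for SPPL2A, COL27A1 and KRCC1; the median window was 58.7% with 14 CpG. In the 5 printed genes other than LOC105375103 the peak began 2 to 43 bases after the start and ended 394 to 493 bases after it. A match of letters is not evidence of a bound factor.

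Run-on peaks were then set against the anti-hNABP2 ChIP peaks of WT cells, 1 shared base or more counting as overlap. Of the peaks of KO-labelled libraries 30.9% (exact 95% interval 25.1 to 37.1), 29.6% (24.8 to 34.8) and 41.1% (31.1 to 51.6) lay on a ChIP peak, against 37.2% (27.5 to 47.8), 31.3% (24.8 to 38.3) and 79.2% (73.8 to 83.9) in WT. The share was lower in the KO-labelled library of all 3 repeats, with a mean difference of -15.4 points, and the wide gap lay in repeat 3. The groups overlapped (exact permutation test, two-sided, p = 0.5; adjusted over 3 peak measures 0.7; exact sign-flip test, two-sided, p = 0.25). Without WT repeat 3 the difference was -0.424 points. In KO-labelled repeat 3, 11 of the 39 peaks on a ChIP peak were mitochondrial. With chromosomes 1 to 22, X and Y alone the mean difference was -17.8 points. Promoter peaks carried a ChIP peak in 24 of 27, 46 of 55 and 13 of 27 cases in KO-labelled libraries and 15 of 18, 24 of 30 and 151 of 183 in WT. In repeats 1 and 2 most promoter peaks of either genotype therefore lay on a ChIP peak, while tRNA gene peaks seldom did, in 1 of 28 and 2 of 8 cases in KO-labelled libraries and 1 of 18 and 0 of 3 in WT. For scale, 70.2% of all genes, and 6153 of the 13447 with 10 or more counts, had no ChIP peak within 1 kb of a start. The share over all promoter windows, or over transcribed ones, was not computed, so the overlaps given here are a description. The histone peaks of repeat 1 lay on a ChIP peak in 18 of 24 cases in the KO-labelled library and 4 of 4 in WT.

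**Figure D5:**
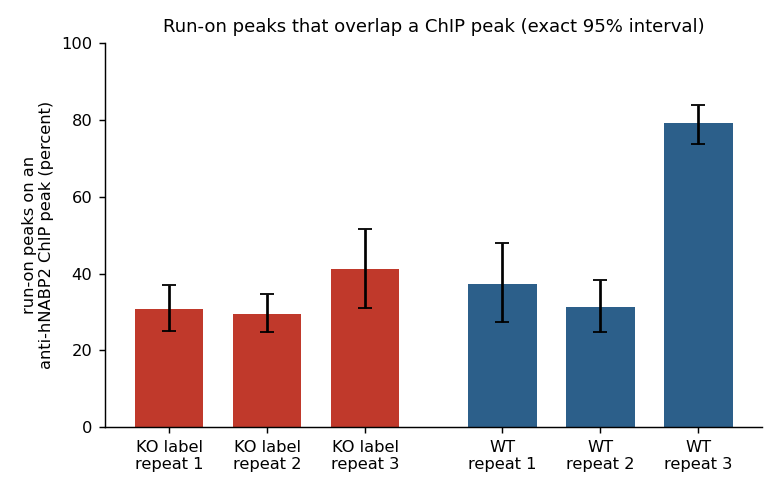
Percent of run-on peaks that overlap an anti-hNABP2 ChIP peak (y axis, from 0) in each library with NTP, KO-labelled libraries on the left and WT on the right, with exact 95% intervals that cover counting error only. WT repeat 3 stands at 79.2% and the other 5 libraries between 29.6% and 41.1%.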

How the data were processed

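Run-on RNA was pulled down with an antibody to BrdU and sequenced from a directional library kit that uses dUTP, per the labels. The submitters' processing notes list MACS2 2.2.1, SAMtools, Bowtie2 2.3.5 and cutadapt 1.18 with hg38; the sources used here do not give the counter, the strand setting or the control of the peak calling. The authors deposited raw counts per gene symbol for 26475 rows with no normalization, of which 25285 matched RefSeq by current or older symbol. The deposited peak lists give for each peak a fold ratio and -log10 q values.

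Counts were tested with edgeR 4.0.16 (R 4.3.3): filterByExpr, TMM, quasi-likelihood F test, Benjamini-Hochberg adjustment and a threshold of 0.05 in 1 model of the 9 libraries with NTP, which includes hNABP1 KO. The filter left 129 genes, so the 10-count alternative is given beside it. The alternatives include limma 3.58.1 (voom) and DESeq2 1.42.0, and the scripts were tested on simulated data. Single values per library were compared with exact two-sided permutation tests over libraries. Libraries of the same repeat number resembled each other. With group means removed they correlated at 0.843, 0.733 and 0.658 over 129 genes, and different numbers at -0.675 to 0.119. With 3 libraries per group, removing the mean forces low values between different numbers once same-number values are high. The repeats also differ in depth, so these values do not show that libraries were paired in the experiment.

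Gene classes follow RefSeq biotypes, with ribosomal RNA genes also taken by symbol. Named genes are those with the smallest p, the 3 highest of each class by mean CPM, the 8 per direction that agreed best over repeats, members of gene lists with 20 or more counts, NABP1 and NABP2. From that set only examples are printed. Members, classes and lists were chosen with earlier results of these data known. Promoter binding uses the deposited annotation of the ChIP peaks, whose tables miss some peaks. The 3 run-on libraries of hNABP1 KO with no NTP, the DRIP-seq lists and the IgG libraries were not analysed here.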

Additional observations from a re-analysis of the deposited data

How the results depend on the processing

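The count of 0 changed genes held in 19 of 20 alternatives, among them the replicate block (0 called), DESeq2, voom, library totals, no count filter and each left-out library (0 in every case). It was 1 (RNA28S5) with 10 or more counts, the replicate block and repeat 3 left out, an alternative chosen after seeing the data, as were all those that leave out a repeat of both genotypes and the paired 10-count fit of the 6 libraries. No value below was past its threshold, and the cause of each turn was not tested. Among log2 fold changes, LOC100130093, ADCY3, NEIL1, SAMD11, LOC100289511, DLG4, FADS2, SMPD4 and RNA28S5 kept their direction in every alternative run, while sizes moved and RMRP turned to 0.21 with 10 or more counts, the block and repeat 2 left out. RNA45S5 turned to -0.19 with the replicate block, -0.23 with voom, and -0.60 and -0.14 with 10 or more counts, the block and repeat 1 or 3 left out. With 10 or more counts and the block, VIM-AS1 turned to 0.14 (0.21 and 0.37 without repeat 1 or 2, 0.13 in the 6 libraries alone) and COL5A1 to 0.15 (0.17, 0.45 and 0.074). Over left-out libraries LOC100289511 ranged from 0.14 (without KO-labelled repeat 1) to 1.03, NEIL1 from 0.64 (without KO-labelled repeat 2) to 1.57 (without WT repeat 2), LOC100130093 from 0.54 (without WT repeat 2) to 1.17, FADS2 from -1.44 (without KO-labelled repeat 2) to -0.60 (without WT repeat 1), SMPD4 from -1.47 (without KO-labelled repeat 3) to -0.41 (without WT repeat 3 or KO-labelled repeat 2), RMRP from -1.29 (without KO-labelled repeat 1) to -0.39 (without KO-labelled repeat 2), RNA28S5 from -1.72 to -0.61 (without WT repeat 1), ADCY3 from 0.51 to 1.08, SAMD11 from 0.48 to 0.91 and DLG4 from -1.27 to -1.01. FADS2 lay at -0.24 with 10 or more counts, the block and repeat 1 left out. RNA45S5 ranged from -0.28 to 0.74 over left-out libraries, VIM-AS1 from -1.71 to 1.14 and COL5A1 from -0.63 to 0.62.

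Differences in the share of counts, in points, turned as follows. Without the gene with the most counts of the class, antisense RNA turned to 0.273, ribosomal RNA to 0.000496 and small structural RNA to 0.0526. As a percent of the genes with a count, other long non-coding RNA turned to -0.165, ribosomal RNA to 0.00375 and small nucleolar RNA to -0.00497. Without ribosomal RNA genes, the class bound in ChIP repeat 2 only turned to -0.0755 and the unbound class to 0.278. Leaving out a library or a repeat gave ranges of -6.22 to -1.41 for ribosomal RNA, -1.23 to 10.3 for protein-coding, -2.83 to 1.96 for antisense, -0.533 to 1.21 for other long non-coding, -0.84 to 0.142 for small structural, -0.0391 to 0.333 for small nucleolar, -0.0156 to 0.373 for pseudogenes and -0.625 to 0.283 for unclassed genes. For promoters bound in both ChIP repeats, repeat 1 only, repeat 2 only or neither the ranges were -1.39 to 0.486, -1.24 to 5.22, -0.256 to 0.342 and -5.76 to 1.55. The difference in peak number ranged from -15.3 to 146 and that of peaks at tRNA genes from -3 to 11. The share of peaks on a ChIP peak was lower in KO-labelled libraries in 13 of 13 alternatives, with differences down to -0.424 points without WT repeat 3. With 3 pairs the exact sign-flip test cannot go below 0.25, so it says nothing about calls. Depths of 5883 to 19581 counts in repeats 1 and 2 left 9.79% to 26.2% of the genes with a count there, which limits every value of a single gene.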
